A study of Mus musculus with 23 samples.

Results

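The genes described here were 10 regulators of cell cycle entry: the CDK inhibitors Cdkn1a, Cdkn1b, Cdkn1c, Cdkn2a, Cdkn2b and Cdkn2c, the tumour suppressor Trp53 and its antagonist Mdm2, and the cyclins Ccnd1 and Ccnd2. They were chosen by symbol, and all 10 had a row among the 23284 genes of the expression table. Values covered 16 single mouse bone marrow mesenchymal stem cells (mMSC1 to mMSC16), 5 single HL-1 cardiomyocytes (HL1cm1 to HL1cm5), and a population control of bulk cells for each cell type (mMSC-PC and HL1cm-PC). The mMSCs were purchased, came from C57BL/6J males 3 months old, and were grown without norepinephrine in α-MEM with 10% serum at passages 6 to 11, to 60 to 70% confluence. HL-1 is an immortal line from an atrial tumour lineage of mice that carry SV40 large T antigen under the atrial natriuretic factor promoter. It was kept at passages 70 to 85 in Claycomb medium with 10% serum and 0.1 mM norepinephrine and split at 100% confluence. Cells of both types were captured on a microfluidic chip made for diameters of 17 to 25 µm. For this capture the HL-1 cells were labelled with a green cytoplasmic dye, CellTracker Green CMFDA. The cell types differed in tissue of origin, immortalization, passage, medium, norepinephrine, confluence and dye label. The parts these play in any difference between them cannot be told apart.

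CDK inhibitors brake the cell cycle at different points. The CIP/KIP proteins p21 (Cdkn1a), p27 (Cdkn1b) and p57 (Cdkn1c) bind whole cyclin–CDK complexes, whereas the INK4 proteins p16 (Cdkn2a), p15 (Cdkn2b) and p18 (Cdkn2c) bind CDK4 and CDK6 and keep the D cyclins from pairing with them. D cyclins (Ccnd1, Ccnd2) with CDK4 or CDK6 phosphorylate the retinoblastoma protein and so free the E2F factors that switch on the genes of DNA replication. The p53 protein (Trp53) is a transcription factor that activates Cdkn1a and Mdm2, and Mdm2 marks p53 for destruction. Cdkn2a also encodes p19Arf from a separate first exon, and p19Arf blocks Mdm2. Large T antigen, which HL-1 was made with, binds both p53 and the retinoblastoma protein.

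A value given for Cdkn2a is for the symbol, so p16 and p19Arf cannot be told apart in it. The gene has 2 annotated transcripts, and the first exon of p19Arf lies upstream of that of p16 on chromosome 4, beside Cdkn2b. Bases before starts of the INK4 members are shown because a value for Cdkn2a joins its starts, and because they show how unlike each other the starts are. They were taken from RefSeq promoters on GRCm38.p6, on the minus strand, up to 250 bases before the start, without bases in exons that GENCODE M21 gives the same gene. Capitals mark the E2F letters TTTCGCGC, TTTGGCGC or TTTCCCGC and the GC-box letters GGGCGG, which were searched on both strands and did not overlap.
Cdkn2a, upstream start (chr4:89294654-89294869): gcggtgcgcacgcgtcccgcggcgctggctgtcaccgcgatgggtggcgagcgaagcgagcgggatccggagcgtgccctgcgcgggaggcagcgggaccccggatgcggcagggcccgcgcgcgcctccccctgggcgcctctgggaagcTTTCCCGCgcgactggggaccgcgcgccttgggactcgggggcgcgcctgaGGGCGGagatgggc
Cdkn2a, downstream start (chr4:89282193-89282442): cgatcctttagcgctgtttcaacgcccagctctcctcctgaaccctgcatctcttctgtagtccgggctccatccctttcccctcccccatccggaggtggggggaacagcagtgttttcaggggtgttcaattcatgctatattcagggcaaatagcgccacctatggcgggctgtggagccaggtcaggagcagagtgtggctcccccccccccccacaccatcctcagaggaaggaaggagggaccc
Cdkn2b (chr4:89311040-89311282): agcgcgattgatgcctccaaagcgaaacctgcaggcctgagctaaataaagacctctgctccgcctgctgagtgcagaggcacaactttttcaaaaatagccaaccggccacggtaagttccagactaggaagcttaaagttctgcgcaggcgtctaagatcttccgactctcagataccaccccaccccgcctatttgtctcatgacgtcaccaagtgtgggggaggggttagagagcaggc
Cdkn2c, downstream start (chr4:109665373-109665609): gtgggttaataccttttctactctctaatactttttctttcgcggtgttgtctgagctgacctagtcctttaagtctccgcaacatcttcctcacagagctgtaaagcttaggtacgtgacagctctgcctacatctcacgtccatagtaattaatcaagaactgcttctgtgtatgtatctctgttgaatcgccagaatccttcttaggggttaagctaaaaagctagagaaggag
In the bases shown, the upstream Cdkn2a start had 1 E2F match and 1 GC box, in sequence that was 78.7% G or C. Its full window of 250 bases, exon bases included, held 2 GC boxes. Counted in that full window, the E2F match began 99 bases before the start. The downstream Cdkn2a start had none of these letters in sequence that was 60% G or C. Cdkn2b and the downstream Cdkn2c start had none either, at 53.5% and 42.6%. The upstream Cdkn2c start is not shown because all 250 bases of its window lie in an exon of the gene. That window held 3 GC boxes and was 77.2% G or C. Over 32851 mouse promoters with windows of 250 bases, 1.53% held an E2F match and 32.7% a GC box. The matches are a description of the letters only. Of the 10 members, 7 had promoters in the RefSeq table, with 10 starts between them.

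The single-cell libraries held 5198 (mMSC9) to 7641 genes above 0 among mMSCs and 6788 to 7226 among HL1cm, and the bulk libraries mMSC-PC and HL1cm-PC held 10279 and 10157. Values were FPKM, which are fragments per kilobase of transcript scaled to the fragments mapped, so levels can be compared between genes per length. Read numbers could not be recovered from the table, and depth is therefore given only as genes above 0. A value of 0 can be a failed estimate as well as an absent transcript: Canx, a chaperone gene of general use, was listed at 0 in mMSC12. One gene took from 3.02% to 72.3% of a single cell's summed FPKM. No 2 libraries held identical values. The labels name no separate cultures, so the cells of a type were treated as 1 sample, comparisons are descriptions over cells, and no test was made. Log2 values were taken after values under 1 FPKM were set to 1, and a spread is the pooled SD of log2 values over the cells compared.

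Cell identity was checked on marker genes. The summed FPKM of 11 cardiomyocyte genes was 32965 to 60142 in HL1cm and 0 to 65.4 in mMSCs, with Nppb at 0 in all 5 HL1cm. Of 10 mesenchymal genes, 9 were above 0 in mMSCs, with a sum of 3205 to 8552 FPKM, and Thy1 was at 0 in all 16. Among macrophage genes, Ptprc, Emr1, Lyz2, C1qa, C1qb and Fcgr1 were at 0 in every mMSC, while the list's sum was 3.10 to 369 FPKM. Cd14 was above 0 in 15 of 16 mMSCs (median 62.5 and highest 337 FPKM), and Csf1r was above 0 in 8 of 16 (at most 32.6 FPKM). Of 6 endothelial genes only Kdr was above 0 in any mMSC, and the sum was at most 10.8 FPKM.

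The plainest pattern was in the D cyclins. Ccnd1 and Ccnd2 were present in all 16 mMSCs and near or at 0 in every HL1cm library. In mMSCs, Ccnd1 (chromosome 7, GRCm38 144929931 to 144939925, minus strand) ranged from 10.9 FPKM in mMSC15 through a median of 68.0 to 219 in mMSC2. In HL1cm, Ccnd1 was at 1.56 FPKM in HL1cm1 and was listed at 0 in HL1cm2, HL1cm3, HL1cm4, HL1cm5 and HL1cm-PC. Every mMSC was thus above every HL1cm cell. Ccnd2 (chromosome 6, 127125162 to 127152193, minus strand) ranged from 61.1 FPKM in mMSC4 through 125 to 242 in mMSC2. In the 5 HL1cm it was 1.63, 0, 0, 0.535 and 1.14 FPKM, and it was listed at 0 in HL1cm-PC. Again the groups did not overlap. No fold is given for either gene because the HL1cm values were at or near 0. The population controls stood on the same side, with 53.8 FPKM of Ccnd1 and 223 FPKM of Ccnd2 in mMSC-PC, where fewer cells of a type and less RNA per cell cannot be told apart.

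Over the 11850 genes that reached 1 FPKM in 2 or more of these single cells, 4.14% had groups that did not overlap (2.26% higher in mMSCs and 1.88% higher in HL1cm) and 43.3% had medians at least 2-fold apart, 21.3% higher in mMSCs and 21.9% higher in HL1cm. Among the 10 members, 9 passed that filter, Cdkn2a through HL1cm alone and all but Cdkn1c. Of these, 2 were at least 2-fold higher in mMSCs and 4 in HL1cm, and the 2 D cyclins were those without overlap. Without HL1cm2 the 4 became 2. Since 43.3% of all genes were 2-fold apart, the count over members is given beside that share and nothing is read from it.

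**Figure D1:**
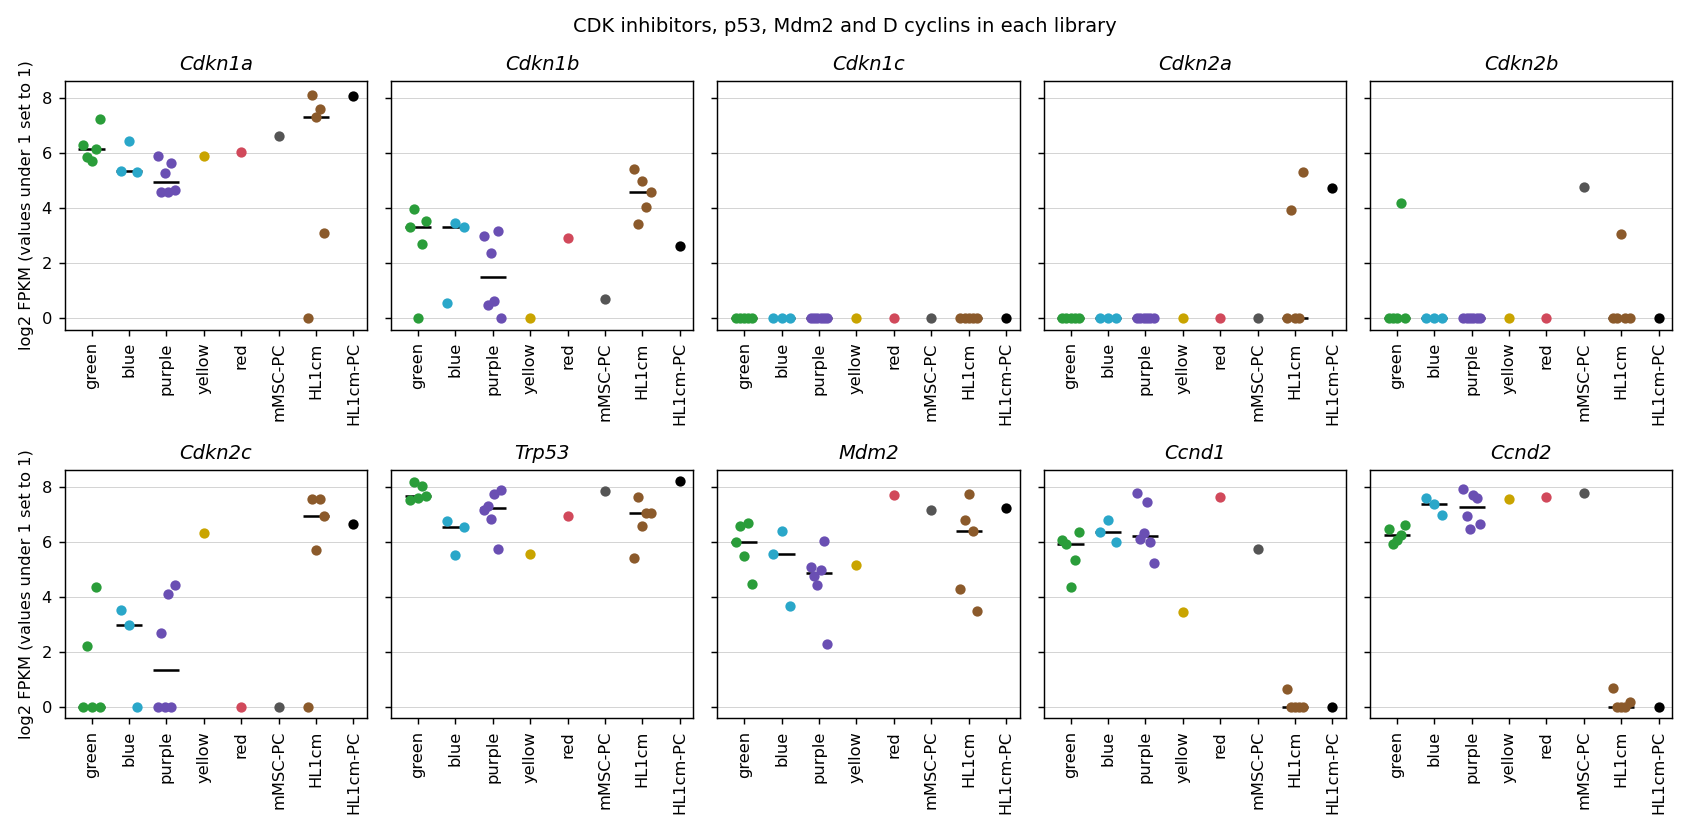
Each panel plots the log2 FPKM (values under 1 set to 1) of a gene in each library, by the study's colour cluster for single mMSCs, then mMSC-PC, single HL1cm and HL1cm-PC. Points are libraries and bars are medians over cells. Ccnd1 and Ccnd2 sit high in all mMSC groups and at or near 0 in HL1cm, whereas Cdkn1a and Cdkn2c are high in most HL1cm.

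The reverse held for Cdkn2c (p18INK4c; chromosome 4, 109660876 to 109667189, minus strand). HL1cm1 to HL1cm5 had 0, 190, 51.9, 189 and 125 FPKM, and HL1cm-PC 102. In mMSCs the gene was above 0 in 8 of 16 cells (50%, exact 95% interval 24.7 to 75.3%), with a median of 2.31 and a highest value of 79.8 FPKM in mMSC15, and mMSC-PC was listed at 0. Thus 3 of 5 HL1cm exceeded every mMSC, HL1cm3 lay below mMSC15 only, and HL1cm1 was listed at 0. The median log2 difference, mMSC minus HL1cm, was −5.86 (SD 2.42), and leaving out any HL1cm cell gave −6.16 to −5.23. Intervals on shares of cells cover counting error only.

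Cdkn2a was listed at 0 in all 16 mMSCs, which allows a share of up to 18.8% of cells, and in mMSC-PC. It was at 15.5 FPKM in HL1cm2, 40.5 in HL1cm5 and 27.02 in HL1cm-PC, and listed at 0 in HL1cm1, HL1cm3 and HL1cm4. This was 2 of 5 HL1cm (40%, interval 5.27 to 85.3%), an interval that overlaps the limit for mMSCs. The HL1cm median was 0, and without HL1cm1, HL1cm3 or HL1cm4 the log2 difference was −1.98. Cdkn2b, its neighbour on the chromosome, was found in 1 cell of each type, at 18.3 FPKM in mMSC11 and 8.28 in HL1cm3. The bulk mMSC-PC held 27.1 FPKM of Cdkn2b, above every single mMSC, while HL1cm-PC was listed at 0. No library had both Cdkn2a and Cdkn2b above 0. A nearby gene, Mtap, which was looked up after these values were seen, was above 0 in 15 of 16 mMSCs (0 to 70.3 FPKM) and in all 5 HL1cm (14.2 to 55.1 FPKM). Cdkn1c (p57; chromosome 7, 143458339 to 143461050, minus strand) was listed at 0 in all 23 libraries. By the limit of 3 counts, this allows a value above 0 in up to 18.8% of mMSCs and 60% of HL1cm, which limits cells with a value and not cells that express the gene.

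Cdkn1a (p21; chromosome 17, 29090976 to 29100727, plus strand) was the CDK inhibitor with the highest median in both cell types. All 16 mMSCs had it, from 24.0 FPKM in mMSC3 through a median of 56.0 to 153 in mMSC14, and mMSC-PC had 98.5. HL1cm1 to HL1cm5 had 0, 282, 160, 196 and 8.55 FPKM, and HL1cm-PC had 270. HL1cm2, HL1cm3 and HL1cm4 lay above every mMSC, and HL1cm1 and HL1cm5 below every mMSC. The HL1cm median was 2.86 times the mMSC median, a log2 difference of −1.52 (SD 1.75) that was smaller than the spread between cells. It turned to 0.45 without HL1cm3 and to 0.60 without HL1cm2 or HL1cm4, and the difference of means was 0.46. The direction for Cdkn1a therefore depended on single cells.

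Cdkn1b (p27; chromosome 6, 134920401 to 134925513, plus strand) was low in mMSCs. It was above 0 in 13 of 16 (81.2%, interval 54.4 to 96.0%), with a median of 7.02 FPKM and a highest value of 15.7 in mMSC4. The 5 HL1cm held 42.9, 10.7, 31.7, 16.7 and 24.0 FPKM, of which 4 exceeded every mMSC and HL1cm2 lay inside the mMSC range. The log2 difference was −1.78 (SD 1.38), and it was −1.98 to −1.52 without any HL1cm cell. The population controls were lower than the means of their cells: mMSC-PC had 1.61 FPKM, inside the range of the single mMSCs and 0.262 times their mean, and HL1cm-PC had 6.23, below all 5 HL1cm and 0.247 times their mean.

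Trp53 (chromosome 11, 69580359 to 69591873, plus strand) had the highest median of the members in mMSCs. It was 45.9 FPKM in mMSC6, 150 at the median and 292 in mMSC4. HL1cm1 to HL1cm5 had 43.0, 200, 95.03, 133 and 133 FPKM, of which HL1cm1 lay just under the mMSC range and the others inside it. The log2 difference of 0.18 (SD 0.86) was below the spread between cells. The population controls were at 234 FPKM in mMSC-PC and 298 in HL1cm-PC, the latter above all 5 HL1cm. RefSeq lists Trp53-ps, a pseudogene by its symbol, on chromosome 17 (54419597 to 54421236). Trp53-ps had no row in the table, so reads shared with it could have counted towards Trp53.

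Mdm2 (chromosome 10, 117688875 to 117710758, minus strand), the ubiquitin ligase of p53, varied most among the members present in every mMSC. It ran from 4.94 FPKM in mMSC13 through 40.3 to 209 in mMSC9, a 42.3-fold range, against 6.36-fold for Trp53, 6.41-fold for Cdkn1a, 20.1-fold for Ccnd1 and 3.96-fold for Ccnd2. In HL1cm1 to HL1cm5 it was 19.5, 113, 213, 85.4 and 11.3 FPKM. The groups overlapped over nearly their whole ranges. The log2 difference was −1.09 (SD 1.41) and fell short of 2-fold without HL1cm2 or HL1cm3 (−0.03) or HL1cm4 (−0.23).

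Ordered by median FPKM, the mMSCs had Trp53 above Ccnd2, Ccnd1, Cdkn1a, Mdm2, Cdkn1b and Cdkn2c. Neighbours in this order mostly traded places from cell to cell. Trp53 exceeded Ccnd2 in 9 of 16 cells, Cdkn1a exceeded Mdm2 in 9 of 16, and Ccnd1 exceeded Cdkn1a in 11 of 16. The steps that held in most cells were Ccnd2 above Ccnd1 in 14 of 16 and Mdm2 above Cdkn1b in 16 of 16. In HL1cm the order was Cdkn1a, Trp53, Cdkn2c, Mdm2 and Cdkn1b, each above the next in 3 or 4 of 5 cells, and then Ccnd2, which lay below Cdkn1b in 5 of 5. In all, 7 members were above 0 in at least 8 of 16 mMSCs and 6 in at least 3 of 5 HL1cm.

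**Figure D2:**
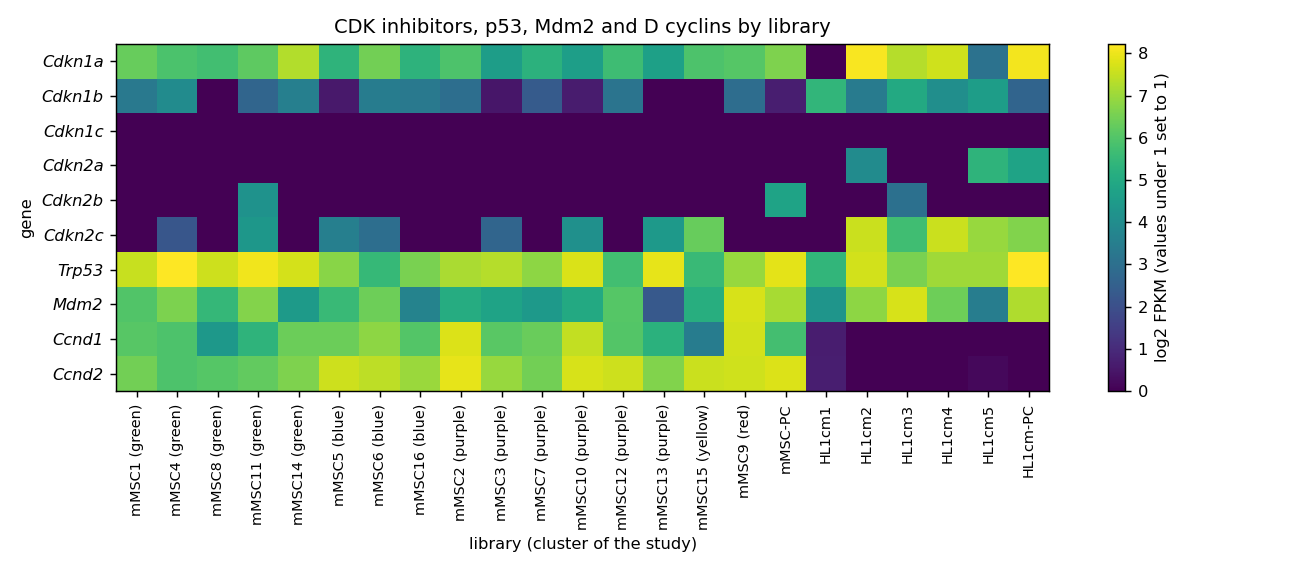
The map gives the log2 FPKM (colour, values under 1 set to 1) of each member in rows and each of the 23 libraries in columns, with single mMSCs ordered by the study's clusters. The D cyclin rows are bright in the mMSC columns and dark in HL1cm, Cdkn1c is dark throughout, and the Cdkn1a row has its brightest and darkest cells in HL1cm.

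In the immortal line, Cdkn1a and Mdm2 were set beside Trp53 and 29 other p53 targets cell by cell. HL1cm4 and HL1cm5 had nearly the same level of Trp53, 133 FPKM, while HL1cm4 had 196 FPKM of Cdkn1a and 85.4 of Mdm2 and HL1cm5 had 8.55 and 11.3. The top gene took 5.11% of summed FPKM in HL1cm4 and 72.3% in HL1cm5. The like levels of Trp53 are for FPKM as given, and their dependence on scaling was not tested. Of the 29 other targets, 9 were lower in HL1cm5 than in HL1cm4, 9 were higher, and 11 were equal, all of them at 0. The 9 that were lower had from 3.08 (Ccnk) to 173 FPKM (Ccng1) in HL1cm4, among them Fas (125 and 41.7) and Bax (76.8 and 52.8). The 9 that were higher reached at most 11.6 FPKM in HL1cm5, and some stayed under 1, such as Polk at 0.97. Genes picked for a high value in 1 cell tend to be lower in another, so nothing is read from these sizes. The targets named here were picked after their values were seen. Ccng1, whose product binds a phosphatase that acts on Mdm2, had 98.0, 428, 173, 173 and 12.6 FPKM in HL1cm1 to HL1cm5, and the antiproliferative gene Btg2 had 41.5, 244, 59.7, 132 and 4.61. The stress gene Gadd45a went the other way between the last cells, with 0 FPKM in HL1cm4 and 11.6 in HL1cm5, as did Ei24 with 0 and 10.6. With 5 cells of a line, this is a listing of values.

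**Figure D3:**
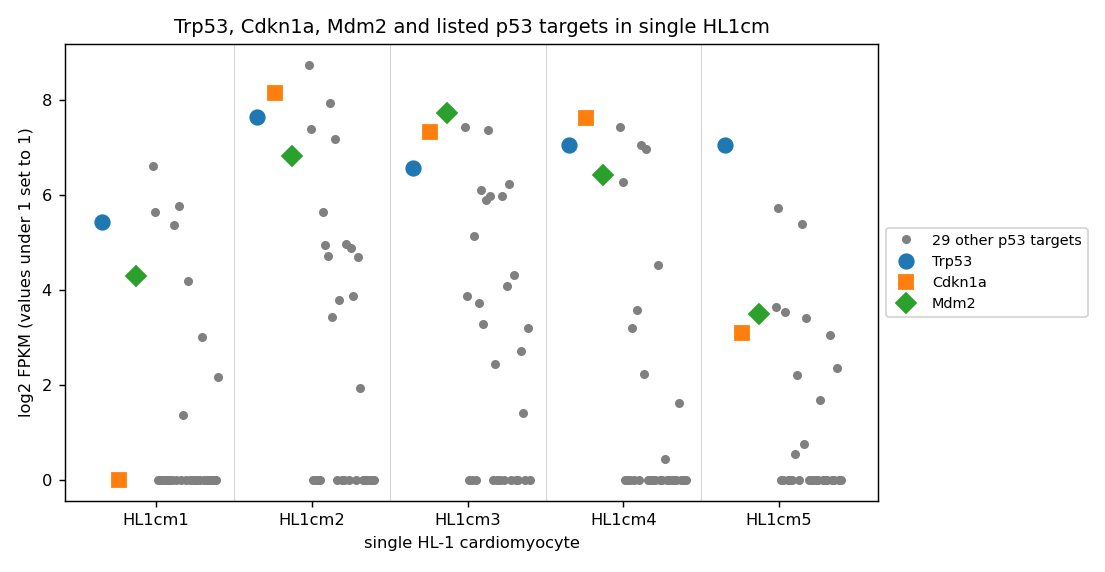
Log2 FPKM (values under 1 set to 1) of Trp53, Cdkn1a and Mdm2 (coloured symbols) and of 29 other listed p53 targets (grey points, in the same order in each cell) is plotted for each single HL1cm. Trp53 lies level at 133 FPKM in HL1cm4 and HL1cm5, with Cdkn1a and Mdm2 lower in HL1cm5, and in each cell many of the other targets are under 1 FPKM.

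The second comparison was between the study's green and purple clusters of single mMSCs. The green cells were mMSC1, mMSC4, mMSC8, mMSC11 and mMSC14, and the purple ones mMSC2, mMSC3, mMSC7, mMSC10, mMSC12 and mMSC13. Green and blue membership was read from the colour bar of the study's clustering picture and the rest from its text, since the labels give no cluster. The clusters had been made from the expression of these same cells, so differences between them were not tested. The mean log2 FPKM of 27 proliferation genes was 5.28 to 5.61 in green and 0.97 to 1.85 in purple cells. Blue cells (mMSC5, mMSC6 and mMSC16) lay between at 3.05 to 4.11, and the single yellow (mMSC15) and red (mMSC9) cells were at 1.29 and 1.67. The HL1cm ranged from 3.50 in HL1cm2 to 6.11 in HL1cm1. The top gene took 28.3 to 62.5% of summed FPKM in 4 green cells and 3.02% in mMSC11, against 3.65 to 17.4% in purple cells; the part of this in the differences below was not tested.

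Of the members, 7 passed the filter for this comparison. Cdkn1a, Cdkn1b and Mdm2 had medians at least 2-fold higher in green cells, Ccnd2 and Cdkn2c at least 2-fold higher in purple cells, and none was without overlap. Over all 10202 genes tested, 33.4% were at least 2-fold apart, 18.4% higher in green and 15% higher in purple cells, and 1.71% did not overlap (1.43% higher in green and 0.274% higher in purple cells). The median of the 7 members was the value for Trp53, 0.45, against 0 over all genes, and nothing is read from it.

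Green cells mMSC1, mMSC4, mMSC8, mMSC11 and mMSC14 had 79.6, 59.0, 53.005, 71.9 and 153 FPKM of Cdkn1a. Purple cells ran from 24.0 through 32.1 to 60.4 FPKM. The cells highest in proliferation genes thus had the higher median of the p21 gene, and mMSC2 was the only purple cell above any green cell. The log2 difference was 1.20 (SD 0.59), and it was 0.90 without mMSC3, mMSC10 or mMSC13. Over the 19 settings tried it was 0.59 to 1.49, so the 2-fold call depended on the setting. Blue cells lay at 40.7, 88.2 and 39.8 FPKM.

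Ccnd2 went the other way. Green cells had 88.4, 61.1, 66.9, 76.6 and 98.4 FPKM, and purple cells 89.1 to 242 with a median of 159. Only mMSC14 among green cells exceeded mMSC7, the lowest purple cell. The log2 difference was −1.02 (SD 0.49), with −0.91 without mMSC4 or mMSC8 and −0.69 without mMSC2, mMSC10 or mMSC12. The blue cells had 194, 169 and 126 FPKM and the yellow and red cells 189 and 197, so of the 11 other mMSCs only mMSC7 lay within the green range. Ccnd1 showed no such gap, with 67.3, 61.3, 20.8, 40.5 and 83.0 FPKM in green and 38.0 to 219 in purple cells (−0.28, SD 0.88).

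**Figure D4:**
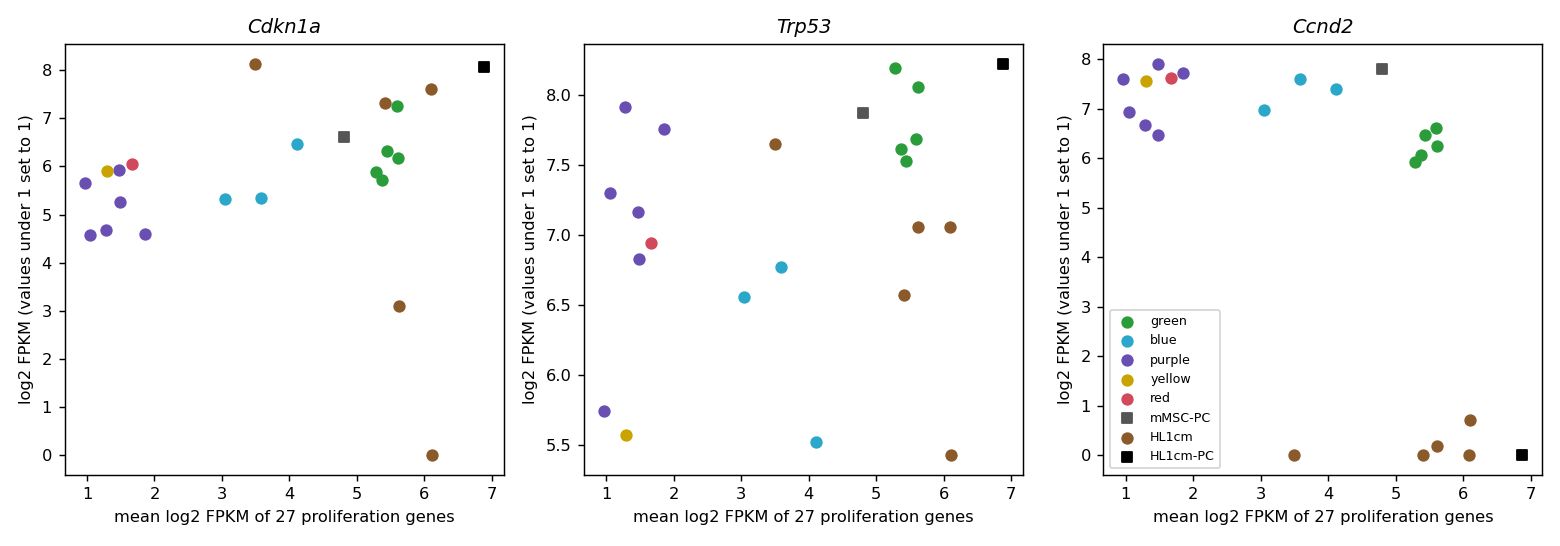
Log2 FPKM (values under 1 set to 1) of Cdkn1a, Trp53 and Ccnd2 is plotted against the mean log2 FPKM of 27 proliferation genes; circles are single cells coloured by cluster or type, and squares are population controls. Green cells lie at the right, at 5.28 to 5.61, with Ccnd2 at or below 98.4 FPKM, and HL1cm lie at 3.50 to 6.11 with Ccnd2 at or near 0.

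Trp53 was 184, 292, 195, 265 and 205 FPKM in green cells and 53.6 to 241 in purple cells, with medians of 205 and 150. The difference of 0.45 (SD 0.61) was within the spread. Green cells varied little, 1.59-fold from lowest to highest, against 4.49-fold in purple cells. The 3 blue cells, at 109, 45.9 and 94.1 FPKM, were all below every green cell. Mdm2 had 63.9, 96.1, 44.8, 104 and 22.2 FPKM in green and 4.94 to 65.7 in purple cells (1.12, SD 1.11), and it came to less than 2-fold without mMSC4 or mMSC11 (0.86) and without mMSC3, mMSC7 or mMSC13 (0.997). Rescaling every library to the same sum turned Mdm2 to −0.60 and Trp53 to −0.23, so the direction of both depended on scaling. That step moved the median of 2717 broadly expressed genes by −0.74, and the part of that shift in the 2 changes was not tested.

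Cdkn1b was 9.93, 15.7, 0, 6.44 and 11.6 FPKM in green cells and 0 to 8.998 in purple cells (1.81, SD 1.48). It dropped below 2-fold, to 0.95, without mMSC3, mMSC10 or mMSC13. Cdkn2c was above 0 in 2 of 5 green and 3 of 6 purple cells, and its difference of −1.34 (SD 2.05) came to −0.24 without mMSC1, mMSC8 or mMSC14 and to 0 without mMSC3, mMSC10 or mMSC13. Cdkn2b was above 0 in mMSC11 alone of the green cells and in none of the purple. Mesenchymal marker sums were 3205 to 5755 FPKM in green and 3940 to 7649 in purple cells, with the collagen genes Col1a1 and Col1a2 and the stem cell antigen gene Ly6a at least 2-fold lower in green cells; their part in these differences was not tested.

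Across the 16 mMSCs, which the labels do not tie to separate cultures, Spearman's rho with the proliferation mean was 0.61 for Cdkn1a, 0.41 for Cdkn1b, 0.40 for Trp53, 0.34 for Mdm2, −0.01 for Ccnd1, −0.11 for Cdkn2c and −0.56 for Ccnd2. Between members, the pair Ccnd1 and Ccnd2 had rho 0.59, Cdkn1a and Cdkn1b 0.55, Cdkn1a and Mdm2 0.54, and Trp53 and Ccnd2 −0.51. The p53 targets among the members did not track their activator's message: rho was −0.05 for Trp53 with Cdkn1a and −0.01 for Trp53 with Mdm2. Among 6776 genes that reached 1 FPKM in 8 mMSCs or more, the gene most like Ccnd2 over the 16 cells was Gng12, a G protein subunit gene (rho 0.92). The most alike were Prim2, a primase subunit gene, for Cdkn1a (0.85), Sh3kbp1 for Ccnd1 (0.86), Txndc12 for Trp53 (0.84), Rtcd1 for Mdm2 (0.85) and Mrps26 for Cdkn1b (0.79). These are the highest of many values over few cells and are given as a description.

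Other genes of the pathway were read from fixed lists. Beside the counts of each list, the shares of all genes were 21.3% higher in mMSCs and 21.9% higher in HL1cm. Between clusters these shares were 18.4% higher in green and 15% higher in purple cells. Among 11 tested INK4, cyclin and CDK partners, 3 were at least 2-fold higher in mMSCs and 2 in HL1cm. Cdkn2d (p19INK4d), the remaining INK4 gene, went with Cdkn2c and did not overlap, at 101 to 318 FPKM in HL1cm and 0 to 66.2 in mMSCs. Ccnd3, the third D cyclin, had a median of 11.4 FPKM in mMSCs (0 to 41.3), and in HL1cm it was 3.42, 0, 0, 41.4 and 0 FPKM. HL1cm4 was thus the only one of the 5 with any D cyclin gene above 10 FPKM. In bulk, Ccnd3 was at 31.5 FPKM in HL1cm-PC and 58.4 in mMSC-PC. The CDK-activating kinase gene Cdk7 had medians of 8.28 FPKM in mMSCs and 2.01 in HL1cm, and the cyclin E gene Ccne1 of 8.31 and 0. The bulk libraries had Ccne1 the other way round, at 37.7 FPKM in mMSC-PC and 64.2 in HL1cm-PC. In green against purple cells 5 were higher and 2 lower, led by Ccne1 (medians 20.8 and 0) and Cdkn2d (11.0 and 0).

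Of 15 retinoblastoma family and E2F genes, 2 were higher in mMSCs and 5 in HL1cm. E2f8, a repressor E2F, was at 4.09 to 66.5 FPKM in HL1cm and 0 to 15.3 in mMSCs, and Rbl1 (p107) had medians of 15.6 and 3.11 FPKM. E2f4 was higher in mMSCs, with medians of 16.8 and 2.55 FPKM. In green against purple cells 5 of 13 were higher and 3 lower, with Rbl1 at 1.20 to 22.7 FPKM in green and 0 to 9.87 in purple cells. Of 27 proliferation genes, 20 were higher in HL1cm and 1 in mMSCs, and 26 were higher in green and none in purple cells, 17 without overlap. Birc5 (survivin), for example, was at 191 to 515 FPKM in green and 0 to 12.97 in purple cells. The study's clusters were made with such genes, so the last count is a description.

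Of 26 p53 target genes, 9 were higher in mMSCs and 6 in HL1cm, and 6 were higher in green and 4 in purple cells. These counts stand beside the shares of all genes given above, and nothing is read from them. Plk2, a polo-like kinase gene, had medians of 74.5 FPKM in mMSCs and 3.21 in HL1cm, and Btg2 of 2.24 and 59.7. Pmaip1 (Noxa), a pro-death gene, was at a median of 14.9 FPKM in green and 0 in purple cells, whereas Sertad1, which binds CDK4, was at 0 and 28.4. Among 15 p53 regulators and kinases, 3 were higher in mMSCs and 2 in HL1cm, with the checkpoint kinase gene Chek2 at medians of 0 and 10.9 FPKM and the deubiquitinase gene Usp7 at 14.4 and 4.19. The bulk libraries had Usp7 the other way round, at 2.27 FPKM in mMSC-PC and 5.43 in HL1cm-PC. In green against purple cells 5 of 14 were higher and 2 lower, with Trp53bp1 at 4.91 to 21.1 and 0 to 5.58 FPKM and Sirt1, a p53 deacetylase gene, at medians of 1.28 and 10.4.

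Of 11 genes listed for protein turnover, none was 2-fold apart between the cell types, though Cks1b (−0.96) and Cul1 (0.82) came near. The share over all genes was 43.3%. Fbxo31, Fbxo4 and Rnf123 had medians under 1 FPKM in both cell types, so the floor set their differences to 0. Nothing is read from the count. In green against purple cells 2 of 10 were higher, Cks1b, a cofactor for p27 degradation, at 118 to 398 and 18.04 to 72.6 FPKM, and Dtl, which targets p21 in S phase, at medians of 30.4 and 1.22. Of 9 regulators of the INK4 locus, 4 were higher in mMSCs and 2 in HL1cm. Ezh2, the Polycomb methyltransferase gene, was at 38.2 to 116 FPKM in HL1cm and 0 to 74.6 in mMSCs. Within mMSCs it was at 33.4 to 74.6 FPKM in green and 0 to 9.13 in purple cells. Ets1, an activator of the locus, and Id1, which opposes it, were listed at medians of 0 in HL1cm and at 14.98 and 36.3 FPKM in mMSCs.

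**Figure D5:**
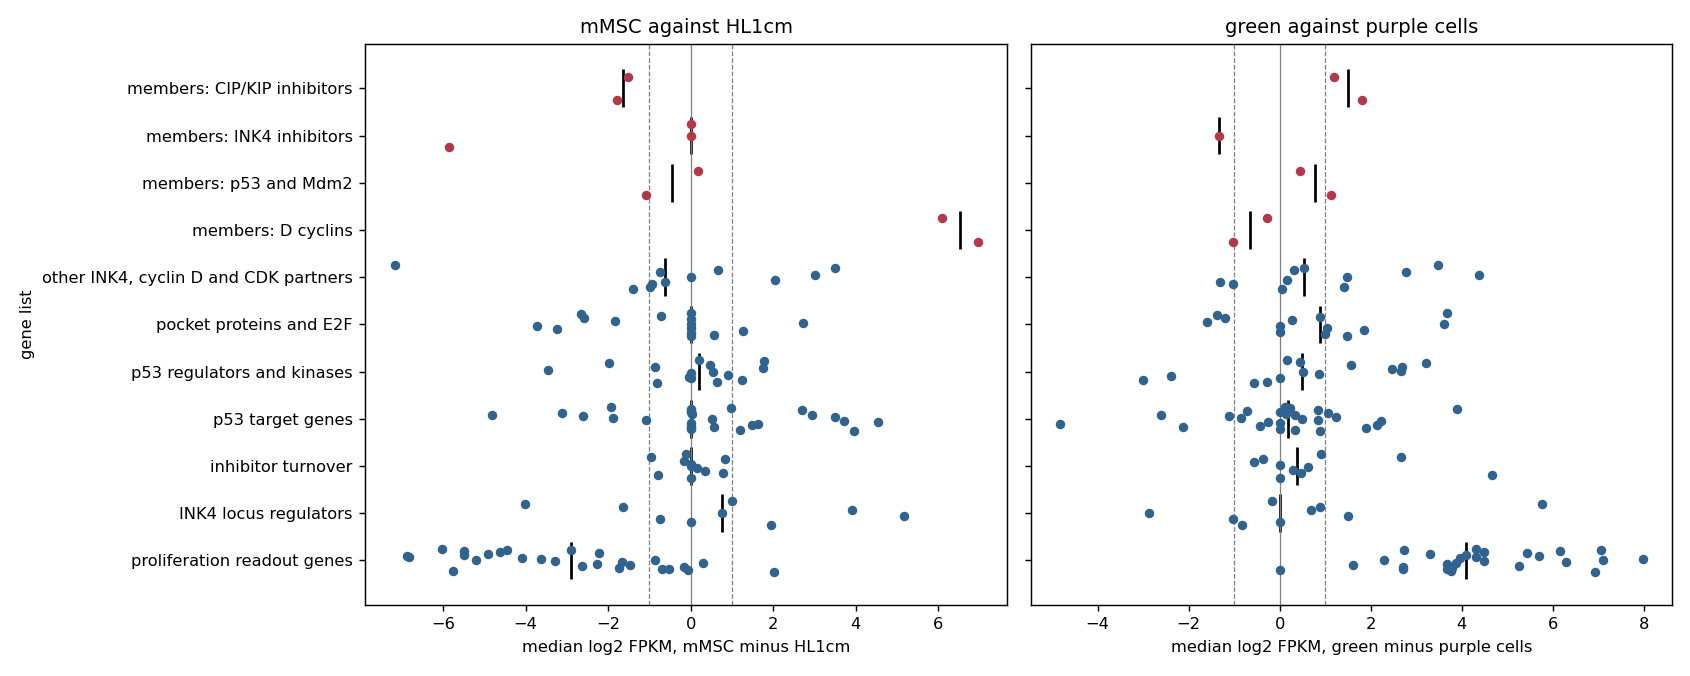
Each point is the median log2 FPKM difference of a gene, mMSC minus HL1cm on the left and green minus purple on the right, grouped by list, with members in red, bars at list medians and dashed lines at 2-fold. The D cyclins stand at 6.09 and 6.96 on the left, positions set by the floor of 1 FPKM because HL1cm medians were below it (2.77 to 9.41 for Ccnd1 and 3.64 to 7.87 for Ccnd2 over the settings tried), and the proliferation genes lie mostly to the right on the right-hand panel.

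The cDNA kit did not mark strand, so overlapping genes could share reads. Ccnd1 is overlapped at its 3′ end by LTO1 on the other strand (Oraov1 in the table, 0 to 17.0 FPKM in mMSCs and 0 to 35.6 in HL1cm). Ccnd2 is overlapped by the antisense gene 9330179D12Rik, which was listed at 0 in every library, and by Gm43126, which had no row. Cdkn1a and Cdkn1c overlap the unnamed transcripts AC167363.2 and Gm44732, neither with a row.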

How the data were processed

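Single-cell cDNA was made on a Fluidigm C1 chip with SMARTer chemistry and tagged with Nextera XT. The authors aligned read pairs to mm10 with TopHat 2.0.12 and computed FPKM with Cufflinks 2.2.1 at default options, and deposited FPKM per gene symbol for 23 libraries in 1 table. No column was left unused (0), and no counts were used. Cluster colours of the mMSCs came from the study's clustering of the genes it found differentially expressed. Here, values under 1 FPKM were set to 1, log2 medians were compared, and a gene entered a comparison if at 1 FPKM or more in at least 2 libraries. A 2-fold difference of medians, and groups that did not overlap, were counted. Because each cell type was 1 sample, no test was made. The members and lists were chosen with earlier results of these data known. List genes were named if among the 4 with the largest difference of at least 2-fold. For each member at 1 FPKM or more in 8 mMSCs or more, the most alike genes by Spearman's rho were sought. That result for Cdkn2c is not reported here. Coordinates of the members are GRCm38 (GENCODE M21), and those of promoters and Trp53-ps are from RefSeq. Python 3.11.15, pandas 2.3.3, scipy 1.17.1 and matplotlib 3.10.9 were used, and the calls were tested on simulated data. In all, 24 alternatives were planned, and 1 of them, a replicate block, could not be made.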

Additional observations from a re-analysis of the deposited data

Results flagged for a closer look

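Of 24 member and group pairs with 4 to 10 cells, 5 had a cell far from the others by Dixon's criterion, which flags about 1 group in 20 by chance. The criterion was applied to log2 values with values under 1 FPKM set to 1, while the values given here are FPKM. Whether a cell stands apart on FPKM as given was not tested. The criterion leans on the many low values: when all other cells are at or under 1 FPKM, any value above 1 stands apart. In HL1cm these were Cdkn2b in HL1cm3 (8.28 FPKM, the others at 0), Cdkn2c in HL1cm1 (0, the others at 51.9 to 190), Ccnd1 in HL1cm1 (1.56, the others at 0) and Ccnd2 in HL1cm1 (1.63 FPKM against 0 to 1.14). Among green cells it was Cdkn2b in mMSC11 (18.3 FPKM, the others at 0). HL1cm1 accounts for 3 of the 5, and it also had Cdkn1a listed at 0 and the highest proliferation mean of the HL1cm, 6.11.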

How the results depend on the processing

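No paired analysis was possible because replicate numbers shared by mMSCs and HL1cm only name cells and no test was made. For mMSCs against HL1cm, 113 values of single members under each setting stayed within the spread of the reported value, 9 moved and 4 reversed. For green against purple cells these were 128, 4 and 1. A value within the spread could still fall short of 2-fold, as Mdm2 did between cell types without HL1cm2 (−0.03). The reversals were Cdkn1a between cell types (0.46 as a difference of means, 0.60 without HL1cm2, 0.45 without HL1cm3 and 0.60 without HL1cm4, in a range of −1.66 to 0.60 when leaving out 1 HL1cm) and Mdm2 between clusters (−0.60 on libraries rescaled to 1 sum). The count of members higher in HL1cm was 2 with division by Gapdh and 2 (without HL1cm2) to 5 when leaving out 1 cell. Members higher in green cells numbered 1 with rescaling to 1 sum and 1 with Gapdh, and 0 to 3 when leaving out 1 cell (0 without mMSC3 or mMSC13, 1 without mMSC10). Members higher in purple cells numbered 1 with values under 10 FPKM set to 10 and 0 as a difference of means, and 0 to 2 when leaving out 1 cell (0 without mMSC8 or mMSC10, 2 without mMSC7 or mMSC11, otherwise 1). The causes were not tested. Rescaling to 1 sum shifted the median of broadly expressed genes by 0.67 for mMSC minus HL1cm and by −0.74 for green minus purple cells. The D cyclins stayed higher in mMSCs in all 14 settings, with Ccnd1 at 2.77 to 9.41 and Ccnd2 at 3.64 to 7.87, as did Cdkn2c in HL1cm (−7.52 to −3.64).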
